A study of Mus musculus with 8 samples.

Results

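Granulocyte-monocyte progenitors were compared with the stem and multipotent progenitor population of the same wild-type bone marrow. The comparison rests on the arrays titled as wild-type GMP (2 arrays) and wild-type LSK (2 arrays), which are 4 of the 8 arrays of the study. The other 4 arrays hold the same populations from mice lacking ACKR1, an atypical chemokine receptor, and enter here only through the shared estimate of the spread and as a separate set of samples. The wild-type mice were females of 12 weeks on a C57Bl/6J background, littermates of the deficient mice from heterozygous breeding, and had received no treatment that the labels record. LSK cells were sorted as lineage-negative, Sca1-positive and cKit-positive, and GMP cells as lineage-negative, Sca1-negative, cKit-positive, CD34-positive and CD16/32-positive. RNA was extracted with Trizol, amplified and labelled with Cy3, and each array is 1 hybridised sample. Whether the arrays of a group came from different animals is not labelled, so every p-value refers to the spread among these few samples, and that spread may be technical. Levels are log2 processed signal minus the 75th percentile of the same array. A difference is GMP minus LSK, so that a difference of 1 is a doubling of signal.

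As background, haematopoietic stem cells and multipotent progenitors lie within the LSK gate, together with lymphoid-primed progenitors that express Flt3 and the first lymphoid genes. GMP cells lie downstream, under the control of PU.1 and the C/EBP factors, and give rise to neutrophils and monocytes. They begin to make the proteases and the peroxidase of the primary (azurophil) granules, whereas the proteins of secondary and tertiary granules are made later, in maturing neutrophils. The GMP gate also takes in progenitors that give rise to mast cells, basophils and eosinophils.

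All arrays lay on 1 slide read in 1 scan. The wild-type arrays shared a slide column, and each slide row held 1 population, LSK in rows 1 and 3 and GMP in rows 2 and 4, so slide row and population cannot be told apart except as a random block. On the wild-type arrays, 66.3% to 73.1% of spots had signal well above background, and 0 spots were saturated. The GMP arrays correlated at r = 0.976 across the tested features and the LSK arrays at r = 0.948. LSK replicate 2 stood apart, in that it lay nearer to the GMP arrays (r = 0.939 and 0.927) than LSK replicate 1 did (r = 0.900 and 0.897). It was above LSK replicate 1 for 17 of the 20 tested members of the primary granule list and 17 of 20 of the monocyte list, but for 42.6% of all features. The summed level of the primary granule list, in multiples of the 75th percentile, was 379 in LSK replicate 1, 587 in LSK replicate 2, and 3650 and 3142 in GMP. The part of such transcripts in the results was not tested, and values are therefore given for each array. In the deficient marrow, LSK replicate 2, with 34.3% of spots well above background, and GMP replicate 1 also stood apart from the other arrays.

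The 2 sorts were checked against marker lists and against the genes of the antibodies. Of 11 tested GMP markers, 5 were called higher (0.502% of all features) and 10 had both GMP arrays above both LSK arrays (28.3%). Of 11 tested LSK markers, 6 were called lower (1.36% of all features) and 9 had both GMP arrays below (20.2%). With 1 wild-type array left out of the fit over all arrays, 0 to 3 of the GMP markers and 2 of the LSK markers were called. The exceptions were Csf3r, the G-CSF receptor, with a difference of −0.12, and Mecom and Ly6a on the LSK side. Ly6a, which encodes the gate antigen Sca1, was at 1.83 and 3.79 in LSK and 2.83 and 3.11 in GMP. These values overlap and go against the gate at this probe, with a difference of 0.16 (SE 0.98), which turned to −0.82 without LSK replicate 1. Mecom, a stem cell transcription factor, had probes that disagreed, at 0.15 and −4.09. Of the other gate antigens, Fcgr3, which encodes CD16, was at −3.87 and −2.43 in LSK and 2.16 and 3.41 in GMP. Fcgr2b, the CD32 gene, had 4.05, Cd34 −1.05 and Kit −0.64. The gate chose on these antigens, so their differences are a description of the sort. That holds also within the marker counts, where Fcgr3 is among the 5 called GMP markers and Ly6a among the 11 LSK markers. Itgam, one of the lineage antigens, was at 6.88 and 5.37 in LSK and 5.57 and 5.06 in GMP, and Cd3e at 2.67, 2.44, 2.77 and 3.08, so neither lineage transcript was at background in either population.

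Of 28088 features tested with limma, 522 (1.86%) passed an adjusted p of 0.05, 141 higher in GMP (0.502%) and 381 lower (1.36%). At an unadjusted p under 0.05 there were 2358. Over all features the median difference was 0.011, and the median SD within a group was 0.42 in LSK and 0.23 in GMP. The gene lists are drawn from the 15856 features with a symbol, of which 118 were called higher and 284 lower. Among these 55.1% lay above 0, against 50.8% of all features, so shares of all features are not from a like set. The 4 arrays did not overlap for far more features, 7939 higher in GMP (28.3%) and 5661 lower (20.2%). Fitted without the deficient arrays, the wild-type arrays gave 394 features higher (1.4%) and 943 lower (3.36%), among them 140 of the 141 and 378 of the 381. With LSK replicate 2 left out of the fit over all arrays, 19 features passed as higher and 23 as lower. Without LSK replicate 1 the counts were 3 and 14, without GMP replicate 1 they were 22 and 65, and without GMP replicate 2 they were 27 and 50. All 522 features kept their direction in each of these, but they had been called for large differences on the same arrays. Scaling moved the share of called features that were higher in GMP from 27.0% to 37.5% with median scaling, 34.5% with quantile normalization, and 15.7% with the 75th percentile of probes detected on all arrays. The first and the last moved the median of all features to 0.34 and −0.36.

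**Figure D1:**
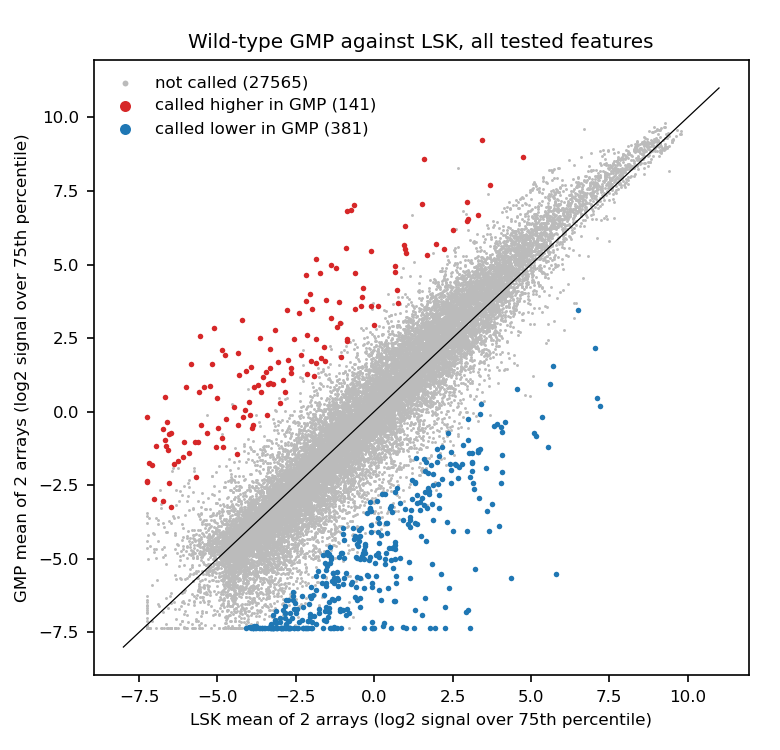
Mean level in wild-type LSK (x axis) and wild-type GMP (y axis), 2 arrays each, as log2 signal relative to each array's 75th percentile, for the tested features that have a value on all 4 arrays. The 141 features called higher in GMP (red) and the 381 called lower (blue) lie away from the diagonal, and many of the blue points lie along the lower edge, where GMP signal is at its lowest value.

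Many of the lower calls are bounds. For 185 of the 381 features called lower, neither GMP array was well above background, and for 69 both GMP arrays were within 0.05 of the lowest value of their array. Among the 141 called higher, 22 were not well above background on either LSK array. On both sides the filter kept such features only through another group with both arrays well above background, so their pattern partly follows from it. For such features the fold is written "at least": the bright group's mean is set against the dim arrays' detection limit (the lowest signal of any probe well above background there), or against the probe's own value where that is higher.

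The largest called differences on the GMP side included secreted factors, innate receptors and granule proteins. Nrg1, which encodes neuregulin, a ligand of the ErbB receptors, was at −6.59 and −4.49 in LSK and at 2.71 and 2.44 in GMP, higher by 8.12 (SE 0.78, adjusted p = 0.00353). It was well above background on 1 LSK array and at the lowest value of the other, so the size of this difference, as of those of Trem3, Mogat2, Cybb and Ms4a6d, is partly set by that floor. Trem3, an activating receptor of mouse myeloid cells, was at −6.59 and −3.64 in LSK and at 2.92 and 2.74 in GMP. Ms4a3, a CD20-family membrane protein of granulocyte-monocyte progenitors, went from −1.88 and 0.58 to 7.14 and 6.92. In each of these genes the GMP arrays lay close together and LSK replicate 2 was above LSK replicate 1. F13a1, the A subunit of coagulation factor XIII made by monocytes, was at −1.95 and 0.21 in LSK and 6.99 and 6.62 in GMP. Hp, which encodes haptoglobin, was at −1.68 and 0.20 against 6.90 and 6.83. C3, the central complement component, was at −1.35 and −0.46 against 5.66 and 5.47, and its other probe had a difference of 5.01.

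Further genes among the 15 largest differences had various roles. Tmem178, a membrane protein gene, was not well above background in LSK and rose at least 85.2-fold, to 0.86 and 0.10. Slc36a2, a proton-coupled amino acid transporter, rose at least 53.8-fold. Mogat2, an acyltransferase of diacylglycerol synthesis, was at −6.59 and −5.44 in LSK and 0.52 and 1.13 in GMP. Mefv, which encodes pyrin, an inflammasome sensor, rose by 6.83 (SE 0.78), with a difference of 3.77 at its other probe. Trem2, a lipid-binding receptor of macrophages, rose by 6.80 (SE 0.77), Igsf6, an immunoglobulin superfamily gene, by 7.04 (SE 0.80), and Apba1, an adaptor protein gene, by 6.93 (SE 0.65). Trem2 and Apba1 were each well above background on 1 LSK array. The adjusted p of Mefv, Trem2, Igsf6 and Apba1 lay between 0.00353 and 0.00428, and in none did the LSK and GMP arrays overlap.

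**Figure D2:**
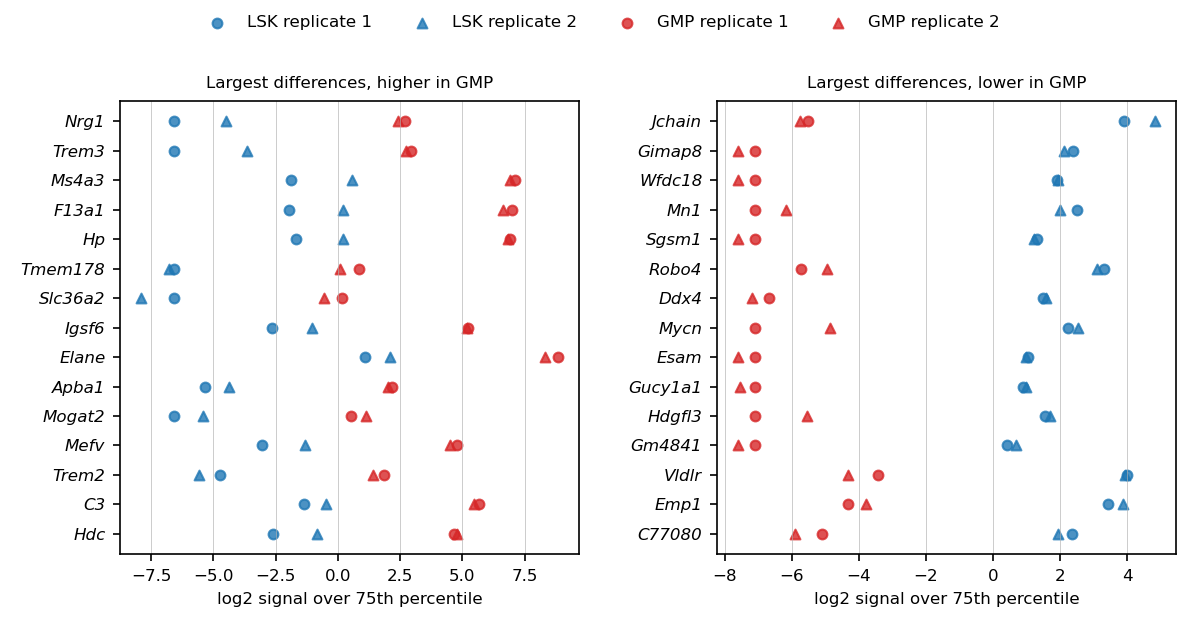
Level of the 15 called genes with the largest difference higher in GMP (left) and lower in GMP (right), as log2 signal relative to each array's 75th percentile, on each of the 4 wild-type arrays. Within every gene the 2 GMP arrays (red) and the 2 LSK arrays (blue) do not overlap. Several GMP values on the right lie at the lowest value of the array, −7.11 in replicate 1 and −7.62 in replicate 2.

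The primary granule list held 20 members, all tested and all above 0, with a median difference of 2.53. Of these, 6 rose, against a background of 0.502% of all features, and 11 passed with the wild-type arrays alone (1.4%). With 1 wild-type array left out, between 1 and 4 passed (3 without LSK replicate 2). Elane, the neutrophil elastase gene, was at 1.10 and 2.08 in LSK and 8.86 and 8.32 in GMP, higher by 7.0 (SE 0.73, adjusted p = 0.00353). Ctsg, which encodes cathepsin G, went from 2.81 and 4.08 to 9.33 and 9.10, higher by 5.77 (SE 0.79, adjusted p = 0.00836). Both proteases were therefore well above background in LSK and higher still in GMP. Slpi, a secreted inhibitor of elastase and cathepsin G, rose by 5.53 (SE 0.64), and Cst7, a cystatin that inhibits lysosomal cathepsins, by 3.72 (adjusted p = 0.0478). Ms4a3 and Hp, described above, were the other called members.

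The remaining proteases and the peroxidase did not pass over all arrays. Mpo, which encodes myeloperoxidase, was at 6.38 and 7.02 in LSK and at 9.77 and 9.43 in GMP, a difference of 2.90 (SE 0.64, adjusted p = 0.058, and 0.022 with the wild-type arrays alone). Its transcript was already well above background on both LSK arrays. Prtn3, the proteinase 3 gene, was at 0.10 and 2.31 in LSK and 5.98 and 7.42 in GMP, with 5.49 (SE 1.41, adjusted p = 0.111, and 0.031 with the wild-type arrays alone). Prss57, a serine protease of azurophil granules, had 2.92 (adjusted p = 0.076). At the other end of the list, 1 member had arrays that overlapped.

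The list of secondary and tertiary granule genes had 22 tested members, a median of 1.10 and 14 members above 0. It was split: 5 members rose (0.502% of all features) and none fell, while 4 of the 22 were not well above background on either GMP array. Likewise, 5 were not well above background on either LSK array. With any 1 wild-type array left out 1 member passed over all arrays, and 3 passed with normexp, where the median was 0.27. Fcnb, which encodes ficolin B, was not well above background in LSK and was at −1.70 and −0.60 in GMP, at least 27.2-fold higher. Mmp8, the neutrophil collagenase, rose at least 11.7-fold but reached only −2.21 and −2.57. Wfdc21, a WAP-domain protein gene, rose by 4.34 (SE 0.76), and Cybb and Hp were the others. S100a8, a calprotectin subunit, was at −1.95 and 0.59 in LSK and at 1.75 and 3.15 in GMP (3.13, adjusted p = 0.21). Ltb4r1, the leukotriene B4 receptor, had 3.05 (adjusted p = 0.064). Padi4, the peptidylarginine deiminase of neutrophils, had −2.74 (adjusted p = 0.536). The late granule genes Camp, Ltf and Ngp had −1.81, −1.85 and −2.33, and none passed (adjusted p between 0.527 and 0.766). They were chosen here after their values were seen.

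**Figure D3:**
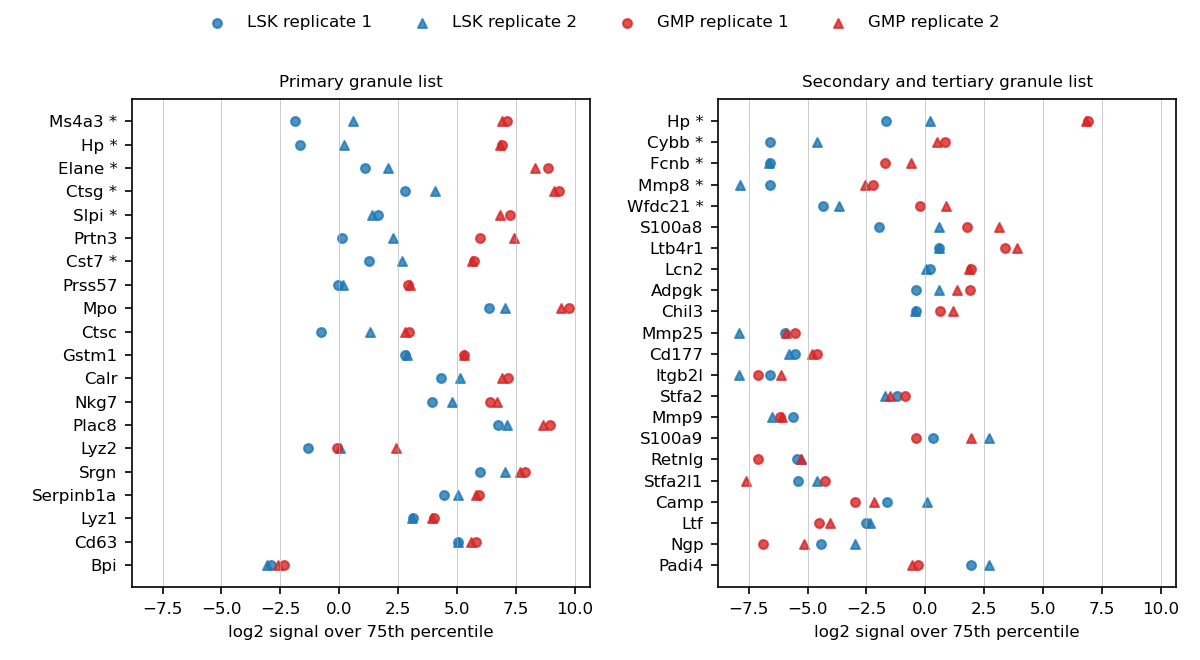
Level on each of the 4 wild-type arrays, as log2 signal relative to each array's 75th percentile, for the tested members of the primary granule list (left, 20 genes) and of the secondary and tertiary granule list (right, 22 genes), ordered by difference, with called genes marked by an asterisk. On the left the GMP points (red) lie to the right of the LSK points (blue) in 19 of 20 genes, and on the right in 12 of 22.

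Among 27 tested transcription factors of granulocytes and monocytes, 1 rose (0.502% of all features) and none fell. Their median of 0.30 turned to −0.07 when the 75th percentile was taken over probes detected on all arrays. The called member was Cebpe, which drives terminal granulocyte differentiation. It was at −1.40 and −1.03 in LSK and at 5.04 and 4.70 in GMP, higher by 6.08 (SE 0.63, adjusted p = 0.00353). Irf8, which directs monocyte fate, was at 2.04 and 3.66 against 7.07 and 6.58, and did not pass over all arrays (3.98, adjusted p = 0.081, and 0.029 with the wild-type arrays alone). Cebpa, which is required to form GMP, had 3.14 (SE 0.87, adjusted p = 0.148, and 0.038 with the wild-type arrays alone). Gfi1, a repressor needed for neutrophil development, was at 3.54 and 3.12 in LSK and 3.64 and 4.07 in GMP (0.52, SE 1.08), so its groups lay side by side. Maf, a bZIP factor of macrophages, was not well above background in GMP and did not pass (at least 11.1-fold lower, adjusted p = 0.083).

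The oxidase that makes superoxide in phagocytes was represented by 7 subunits and Rac GTPases, all with both GMP arrays above both LSK arrays (28.3% of all features) and a median of 1.81. Cybb, its membrane-bound catalytic subunit, was at −6.59 and −4.61 in LSK and 0.84 and 0.51 in GMP, and rose by 6.28 (SE 1.04, adjusted p = 0.017). None of the other 6 passed. Ncf1, the cytosolic p47 subunit, had 2.42 and Cyba, the partner of Cybb in the membrane, 2.05. Among the 30 neutrophil surface receptors, 2 rose (0.502% of all features), and the median of 0.10 was near that of all features and turned under 1 scaling. Cd14, the co-receptor for lipopolysaccharide, was at −4.23 and −3.61 in LSK and 1.58 and 1.43 in GMP. It rose by 5.43 (SE 0.68, adjusted p = 0.00546), and Trem3 is given above. Clec5a, a lectin receptor of myeloid cells, was not well above background in LSK and did not pass (at least 5.59-fold higher, adjusted p = 0.055). With the wild-type arrays alone, 6 of the 30 rose (1.4% of all features).

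Genes of monocytes and macrophages were next examined. Of 20 tested members, 8 rose (0.502% of all features) and none fell, with a median of 2.46. With 1 wild-type array left out, 0 to 2 passed in the fit over all arrays and 9 to 13 with the wild-type arrays alone. Beside F13a1, Ly86, which encodes MD-1, the partner of the Toll-like receptor homologue RP105, was at −0.98 and 0.79 in LSK and 5.50 and 5.39 in GMP (5.54, adjusted p = 0.00954). Ccr2, the chemokine receptor of inflammatory monocytes, was at −3.76 and −2.90 against 2.43 and 1.84 (5.46, adjusted p = 0.017). Cx3cr1, the fractalkine receptor, was at −1.14 and −1.04 against 2.98 and 3.02 (4.09). Csf1r, the receptor for macrophage colony-stimulating factor, was already at 2.82 and 3.12 in LSK and reached 6.56 and 6.38 in GMP (3.50, adjusted p = 0.043), but its 3 probes ranged from 0.19 to 3.69. Ms4a6d rose by 4.51. The gate does not separate monocyte-committed progenitors from other GMP cells, and in sorted populations fewer cells of a type and less RNA per cell cannot be told apart. Vcam1, a member that marks macrophages, had 2.36 (adjusted p = 0.547), and Fn1, the fibronectin gene, 2.56.

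Genes of mast cells, basophils and eosinophils also included many that rose in GMP. Of 23 tested members, 7 rose (0.502% of all features) and none fell, and 21 lay above 0 (50.8%, and 55.1% of features with a symbol). The median was 2.30 (1.07 with normexp and 1.05 with every probe of the mast cells, basophils and eosinophils list as its own feature). With the wild-type arrays alone, 12 members were called (1.4%). Leaving out 1 wild-type array left at most 1 call over all arrays and 9 to 13 with the wild-type arrays alone. Hdc, the enzyme that makes histamine, was at −2.61 and −0.82 in LSK and 4.67 and 4.78 in GMP (6.44, SE 0.80, adjusted p = 0.00546). Prg2, the major basic protein of eosinophil granules, was at −2.13 and −0.64 against 4.83 and 5.13 (6.37, adjusted p = 0.010). Prss34, a serine protease of basophils, was at −2.57 and −1.51 against 3.77 and 4.24 (6.04, adjusted p = 0.010). So a mast cell or basophil enzyme, an eosinophil granule protein and a basophil protease were all clearly above background in GMP. Epx, the eosinophil peroxidase, rose by 5.58 (adjusted p = 0.027). Fcer1a, the alpha chain of the high-affinity IgE receptor, rose at least 27.4-fold from values not well above background in LSK. Ms4a2, its beta chain, was at −2.26 and −1.55 in GMP and did not pass (at least 16.3-fold, adjusted p = 0.13), nor did Il1rl1, the receptor for IL-33 (3.17, adjusted p = 0.13). The summed level of this list was 14.9 and 18.2 in LSK and 118 and 131 in GMP.

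On the LSK side, the largest differences joined stem cell regulators with genes of other tissues. Jchain, the joining chain of secreted immunoglobulins, was at 3.91 and 4.84 in LSK and at −5.53 and −5.77 in GMP, where it was not well above background. The limma difference was −10.03 (SE 0.89, adjusted p = 0.00353). Its fold of at least 1043 is that same difference and carries its SE, because both GMP values lay above the detection limit used. Mn1, a transcriptional coregulator active in leukaemia, fell at least 285-fold, from 2.49 and 2.0. Ddx4, an RNA helicase known from germ cells, was at 1.48 and 1.57 in LSK and fell at least 173-fold. All 3 were well above background on both LSK arrays and on neither GMP array. A probe dim in GMP is kept only where both arrays of another group are well above background, so this pattern partly follows from the filter. Gucy1a1, a subunit of the nitric oxide receptor guanylate cyclase, fell at least 115-fold and Wfdc18, a WAP-domain protein gene, at least 229-fold. Sgsm1, a regulator of small GTPases, fell at least 145-fold at its brightest probe, with the least difference among its 3 probes at −2.63. Emp1, a membrane protein gene, was at 3.43 and 3.87 in LSK and −4.33 and −3.80 in GMP (−7.72, SE 0.91).

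Of 43 tested genes of stem cell identity, 15 fell and none rose, against a background of 1.36%, with a median of −2.89 and 40 members below 0. With the wild-type arrays alone 25 fell (3.36% of all features). With 1 wild-type array left out, 3 to 8 passed over all arrays (5 without LSK replicate 2) and 20 to 27 with the wild-type arrays alone. Robo4, a receptor of the Slit pathway that is found on stem cells and endothelium, was at 3.31 and 3.1 in LSK and −5.72 and −4.96 in GMP, well above background on 1 GMP array (−8.55, SE 0.93, adjusted p = 0.00368). Esam, an endothelial adhesion molecule and stem cell marker, was at 1.03 and 0.97 in LSK and at the lowest values of both GMP arrays, at least 121-fold lower. Vldlr, a lipoprotein receptor, was at 4.01 and 3.92 against −3.42 and −4.34 (−7.85, SE 0.82). The LSK arrays agreed closely for all 3. Procr, which encodes the endothelial protein C receptor, was at 3.36 and 2.92 against −2.41 and −2.43 (−5.56, SE 0.81).

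Several transcription factors fell too. Mycn, the MYC-family factor expressed in stem cells, was at 2.23 and 2.55 in LSK and −7.11 and −4.88 in GMP (−8.38, SE 1.05, adjusted p = 0.00556). It was well above background on 1 GMP array and at the lowest value of the other, so the size of its difference is partly set by that floor. Gata3, a factor of T cells and of stem cells, was at 0.45 and 0.09 in LSK and fell at least 72.4-fold. Hlf, a PAR bZIP factor of stem cells, was at 4.32 and 4.05 against −0.42 and −0.27 (−4.53, SE 0.78, adjusted p = 0.019). Meis1, a partner of Hox proteins, was at 5.85 and 5.55 against 1.81 and 1.27 (−4.16, adjusted p = 0.043), so that it stayed well above background in GMP. Cdkn1c, which encodes p57, the CDK inhibitor of quiescent stem cells, fell by 4.41 (SE 0.70, adjusted p = 0.013). Angpt1, a ligand of the TIE2 receptor, was at 4.75 and 4.84 against 0.33 and 0.80 and did not pass over all arrays (−4.23, adjusted p = 0.063, and 0.00702 with the wild-type arrays alone). Vwf had −3.60 (adjusted p = 0.092). Of 19 tested Hox genes, 5 fell (1.36% of all features) and none rose, with a median of −1.91. With 1 wild-type array left out, 0 to 1 of the Hox genes passed over all arrays and 6 to 8 with the wild-type arrays alone. Quantile normalization and the stricter filter on dim probes called 0 and normexp 1, with medians of −1.37, −1.06 and −0.93. Hoxa10 fell at least 24.7-fold, Hoxb5 at least 12.2-fold and Hoxb2 at least 12.5-fold, while Hoxa9 was at 0.15 and 0.18 against −2.04 and −2.04 and did not pass (−2.21, adjusted p = 0.217). Another 10 of the 33 Hox genes on the array were not well above background on any wild-type array.

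The GIMAP genes, a cluster of GTPases of the immunity-associated family that is best known from lymphocytes, had 6 of 8 members called lower (1.36% of all features) and a median of −4.96 (−2.94 with normexp). Between 0 and 3 passed with 1 wild-type array left out (0 without either LSK replicate). With the wild-type arrays alone 5 passed, and 6 in each such fit with 1 array left out. Gimap8 was at 2.39 and 2.11 in LSK and at the lowest values of both GMP arrays, at least 287-fold lower. Gimap6 was at 5.31 and 5.75 against −1.14 and −1.25 (−6.73, SE 0.76, adjusted p = 0.00428), and Gimap5 at 2.24 and 2.40 against −4.15 and −3.36 (−6.08, SE 0.87). Both were bright in LSK, and their arrays did not overlap between the populations. Of the 8 members, 3 were well above background on neither GMP array, so the filter kept them through another group. Gimap4 had 0.15 at the probe used, with its 3 probes ranging from −5.21 to 0.15. Gimap9 had −1.92 (adjusted p = 0.337).

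Of 28 genes of lymphoid priming, 8 fell (1.36% of all features) and none rose, with a median of −1.70. Leaving out 1 wild-type array left 0 to 4 calls over all arrays (1 without LSK replicate 2) and 9 to 13 with the wild-type arrays alone. Dntt, the terminal transferase that adds bases at V(D)J joints, was among the brightest LSK genes at 7.31 and 7.11 and was at 0.10 and 0.26 in GMP (−7.03, SE 0.74, adjusted p = 0.00353). Flt3, the cytokine receptor of lymphoid-primed progenitors, was at 4.65 and 5.65 against −0.81 and −0.87 (−5.99, adjusted p = 0.017), with −4.09 at its other probe. Ltb, a TNF-family cytokine, was at 3.87 and 4.27 against −2.29 and −1.82 (−6.12, SE 0.65). Il7r, the IL-7 receptor, fell at least 13.9-fold and Ccr9, the chemokine receptor of thymus-seeding progenitors, at least 46.4-fold. Rag2, the partner of Rag1 in the V(D)J recombinase, had −2.09 (adjusted p = 0.305). Bcl11a, a factor needed for B cell development, was at 3.76 and 4.39 against 2.07 and 1.98 (−2.05, adjusted p = 0.489).

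Markers of mature B and T cells were mostly low in both populations. On the B cell list, 2 of 13 fell (1.36% of all features), Pou2af1, a coactivator of immunoglobulin genes, at least 41.4-fold and Fcrla, an Fc receptor-like gene, at least 5.02-fold. Ms4a1, which encodes CD20, had signal well above background on 1 of 4 arrays. The summed level of the B cell list was 13.8 to 16.5 on the 4 arrays. On the list of T and NK cells, 2 of 19 fell (1.36% of all features) and 1 rose (0.502%). Lck, the kinase of T cell receptor signalling, was at 3.83 and 3.84 in LSK and −0.0027 and −1.0 in GMP (−4.33, SE 0.66, adjusted p = 0.012). Lat, its adaptor, fell by 3.39 (adjusted p = 0.028). Gzmb, which encodes granzyme B, was well above background on 1 LSK array and rose by 4.02 (SE 0.83, adjusted p = 0.044). The summed level of this list was 40.7 and 31.8 in LSK and 15.8 and 17.0 in GMP. Of 16 genes of dendritic cells and MHC class II, 1 fell (1.36% of all features), namely Flt3, and none rose. H2-Eb1, an MHC class II chain, was at 2.01 and 3.04 in LSK and −1.79 and −0.47 in GMP (−3.66, adjusted p = 0.091).

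Genes of megakaryocytes and platelets had a median of −1.33. Of 24 members, 1 fell over all arrays (1.36% of all features) and 8 with the wild-type arrays alone (3.36%). Ppbp, a platelet chemokine, was not well above background in GMP and did not pass (at least 4.51-fold lower, adjusted p = 0.828), and Rab27b, which acts in granule secretion, −3.30 (adjusted p = 0.191). Of 29 erythroid genes, none fell and 1 rose (0.502% of all features). It was Mt1, a metallothionein that is not restricted to red cells, at 0.75 and 1.20 in LSK and 6.61 and 6.01 in GMP (5.33, SE 0.67, adjusted p = 0.0055). Car2, a carbonic anhydrase of red cells, was at 4.38 and 5.54 against 0.71 and 0.33 (−4.44, adjusted p = 0.072), and Hbb-bt, a beta globin gene, had −3.43 (adjusted p = 0.068). The erythroid median of −0.55 turned to 0.09 without LSK replicate 2. Of 13 genes of stroma and endothelium, 0 passed, with a summed level of 22.4 to 27.1 on the 4 arrays. Cxcl12, the main stromal chemokine, was not well above background in GMP (at least 9.09-fold lower, adjusted p = 0.167).

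The interferon response and MHC class I list had 28 of 34 members below 0 and a median of −1.04. Above 0 lay 50.8% of all features and 55.1% of those with a symbol. Of the 34 members, 4 fell (1.36% of all features) and none rose, and 8 fell with the wild-type arrays alone (3.36%). Over all arrays, 0 passed once any 1 wild-type array was left out. Ifi44 was at 1.72 and 2.45 in LSK and −3.84 and −2.72 in GMP (−5.36, SE 0.83, adjusted p = 0.012). Oas2, a sensor of double-stranded RNA that makes oligoadenylates, was at 3.21 and 3.54 against −1.83 and −0.71 (−4.64, adjusted p = 0.028). Ifit3, well above background on 1 GMP array, and Rsad2, which encodes viperin, fell by 4.56 and 3.75. All 4 are classical interferon-stimulated genes, and all were well above background on both LSK arrays. Ifitm1, a membrane protein that restricts viral entry, was at 6.39 and 6.46 in LSK and 3.59 and 3.81 in GMP and did not pass (−2.73, SE 0.64, adjusted p = 0.079).

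**Figure D4:**
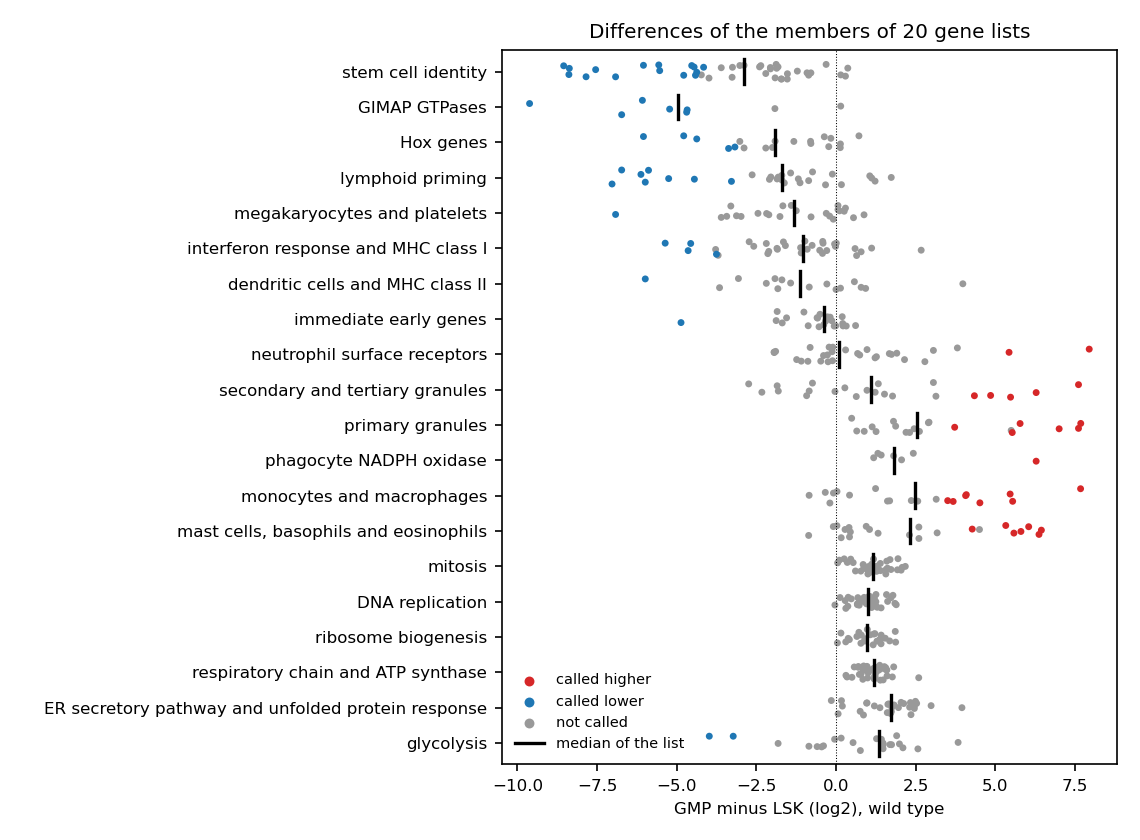
Difference GMP minus LSK (log2, wild type) for each tested member of 20 gene lists, 1 point per gene, with called genes in red (higher) and blue (lower), uncalled genes in grey and the median of each list as a black bar. Stem cell, GIMAP, Hox and lymphoid genes extend to the left and granule, monocyte and mast cell genes to the right. The lists of mitosis, DNA replication, ribosome biogenesis and the respiratory chain form narrow clusters to the right of 0 with no called member.

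In the lists of mitosis, DNA replication and ribosome biogenesis, nearly every member lay above 0 and none passed over all arrays. For mitosis genes, 34 of 34 were above 0 (50.8% of all features and 55.1% of those with a symbol). Their median was 1.14, with a range of 0.05 to 2.17 and 0 called, also with the 4 wild-type arrays alone. The wild-type fit without LSK replicate 2 takes its spread from the GMP arrays alone and called many more features, among them members of all 3 lists. With 1 wild-type array left out, the median differences of mitosis, DNA replication and ribosome biogenesis were 0.79 to 1.52, 0.66 to 1.29 and 0.59 to 1.32. Plk1, a mitotic kinase, was at 1.22 and 2.32 in LSK and 3.92 and 3.76 in GMP (2.07, SE 0.94, adjusted p = 0.61). For DNA replication, 37 of 38 were above 0 with a median of 1.01. Mcm5, a subunit of the replicative helicase, had 1.89 and Tk1, thymidine kinase, 1.85. For ribosome biogenesis, 25 of 25 were above 0 with a median of 0.98, among them Bop1, a factor of large subunit assembly, with 1.87. The medians of these 3 lists stayed above 0 under every scaling, at 0.77 to 1.47, 0.51 to 1.34 and 0.54 to 1.31. The proteins of the cytosolic ribosome, already among the brightest genes in LSK, had a median of 0.28 over 35 members, which turned to −0.10 when the percentile was taken over probes detected on all arrays.

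The mitochondrial lists were similar. All 32 mitochondrial ribosomal proteins had both GMP arrays above both LSK arrays (28.3% of all features), with a median of 0.99, and so did 36 of 37 subunits of the respiratory chain and ATP synthase, with a median of 1.19. Neither list had a called member over all arrays or with the 4 wild-type arrays alone. Array weights called 2 of the respiratory chain, and the wild-type fit without LSK replicate 2, which called many more features, called members of both lists. Atp5g1, a subunit of the ATP synthase ring, was at 5.03 and 5.25 in LSK and 7.01 and 6.88 in GMP (1.81, adjusted p = 0.55), and Cycs, which encodes cytochrome c, had 1.77. All 30 proteasome genes also had both GMP arrays above both LSK arrays, with a median of 0.95 that dropped to 0.20 with quantile normalization. That normalization also lowered the respiratory chain median, to 0.50, and the medians of the mitochondrial ribosomal proteins and the secretory pathway to 0.62 and 1.10. In the secretory pathway, 29 of 30 genes were above 0 with a median of 1.72. None passed over all arrays and 5 with the wild-type arrays alone (1.4% of all features), a count that changed with the array left out. Sdf2l1, an ER chaperone cofactor, was at 0.05 and 1.82 against 4.98 and 4.79 (3.95, SE 1.16, adjusted p = 0.187), and P4hb, protein disulphide isomerase, had 2.98 (SE 1.40). The median level of the mitosis list was 1.24 and 2.20 in LSK and 2.82 and 2.83 in GMP, so LSK replicate 2 lay between. Without it the median differences of mitosis, ribosome biogenesis and the secretory pathway were 1.52, 1.32 and 1.96, and without LSK replicate 1 they were 0.79, 0.59 and 1.5.

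Glycolysis was mixed. Its median was 1.35 over 24 genes, yet its 2 called members fell (1.36% of all features). With the wild-type arrays alone, 2 rose (1.4% of all features) and 2 fell (3.36%). Normexp called 1 higher and 1 lower, and quantile normalization and median scaling called 0. Aldoc, the aldolase isoform best known from brain, was at 3.12 and 2.58 in LSK and −0.73 and −1.53 in GMP (−3.98, SE 0.70, adjusted p = 0.020). Eno2, neuronal enolase, fell by 3.23 (adjusted p = 0.041) and was well above background on 1 GMP array. Hk3, a hexokinase of myeloid cells, had 3.83 (SE 1.13, adjusted p = 0.191, and 0.018 with the wild-type arrays alone). Pgam1 and Pkm, enzymes of the lower pathway, had 2.57 and 2.10. None of 24 genes of cholesterol synthesis passed. Fdps, farnesyl diphosphate synthase, had 2.81 (adjusted p = 0.112) and Acat2 was at 2.54 and −1.34 in LSK, so that its −2.46 rested on LSK replicate 1.

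Receptors for growth factors and cytokines moved in both directions. Of 29 tested, 4 fell (1.36% of all features) and 1 rose (0.502%). The median of −0.09 turned under median scaling, with the stricter filter on dim probes and without any 1 wild-type array. Il18r1, a chain of the IL-18 receptor, was at 0.30 and −0.47 in LSK and fell at least 56.8-fold, with −3.22 at its other probe. Flt3 and Il7r, which fell, and Csf1r, which rose, are given above. Il1r1, the IL-1 receptor, was at 0.66 and 2.41 against −1.92 and −1.90 (−3.45, adjusted p = 0.378), and Il3ra, the alpha chain of the IL-3 receptor, had 2.30. Among 22 chemokine receptors and chemokines, Ccr2 and Cx3cr1 rose (0.502% of all features) and Ccr9 fell (1.36%). Their median of 0.02 turned to −0.35 with the percentile over probes detected on all arrays. It also turned without LSK replicate 1 and without GMP replicate 2. Ccl4, an inflammatory chemokine, was at 5.91 and 6.18 in LSK and 2.78 and 2.77 in GMP (−3.27, adjusted p = 0.153, and 0.011 with the wild-type arrays alone). Ackr1, the gene disrupted in the other arm of the study, was at −0.66 and −1.05 in LSK and −0.50 and −0.45 in GMP (0.38, SE 0.61).

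The remaining lists had few calls. Of 29 integrins and adhesion molecules, 3 fell (1.36% of all features), namely Esam, Jam3, a junctional adhesion molecule (−3.89, adjusted p = 0.035), and Itga9, the integrin alpha 9 chain (−3.17, adjusted p = 0.047). Of 23 immediate early genes, 1 fell (1.36% of all features). Nr4a1, an orphan nuclear receptor induced by stimulation, went from 6.81 and 7.27 to 2.30 and 2.06 (−4.87, SE 0.77, adjusted p = 0.013). Egr1, another gene of this kind, was at 5.99 and 6.06 against 4.64 and 3.64 and did not pass (−1.88, adjusted p = 0.568). Of 15 genes of the BCL2 family, 1 fell (1.36% of all features). Bok, a pro-apoptotic member, fell by 4.2 (SE 0.73, adjusted p = 0.019). Bid and Pmaip1, which also promote apoptosis, had 2.18 and 2.37 without passing. Among 17 D cyclins and CDK inhibitors, 1 fell (1.36% of all features), namely Cdkn1c. Ccne1, the G1/S cyclin E, had 2.03 (adjusted p = 0.214). None of 23 genes of DNA methylation and Polycomb passed. Dnmt1, the maintenance methyltransferase, had 1.73 and Dnmt3a, a de novo methyltransferase, −1.79.

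The ACKR1-deficient arrays give the same population contrast in samples that the wild-type comparison does not share, although they enter the same estimate of spread. There, 0 features passed between GMP and LSK with limma, and 4697 had an unadjusted p under 0.05. Of the 141 features called higher in wild type, 135 also had a difference above 0 in deficient marrow, where 48.0% of all features did, and 376 of the 381 called lower were below 0. Their medians were smaller, at 2.17 against 4.58 in wild type for the higher features and −2.59 against −4.54 for the lower ones. Elane had 3.22 in deficient marrow and Ms4a3 5.92, whereas Cebpe had 0.97, Hp 1.37 and Jchain −1.82. The other called secondary and tertiary granule genes had 0.05 (Cybb), −0.06 (Fcnb), −0.31 (Mmp8) and 1.08 (Wfdc21). The median of that list was 0.11 against 1.10 in wild type, and of the interferon and MHC class I list 0.02 against −1.04. For primary granules it was 2.77 against 2.53, and for stem cell identity −1.24 against −2.89. The test of the difference between genotypes called 0 features with limma (695 at an unadjusted p under 0.05), so none of these contrasts was shown to depend on the genotype. The features were chosen by their wild-type call, and both deficient groups hold an array that stood apart.

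Promoters from RefSeq (GRCm38.p6, 250 bases before to 50 after the start) were read for genes that moved together, to show which letters of haematopoietic motifs lie near the start. A promoter was listed for 12618 of 15856 tested symbols, among them 82 genes called higher and 225 called lower. For 4 called primary granule genes and 2 called stem cell genes, with the motifs found in capitals, the strand of the gene read 5′ to 3′, they are as follows.
Ms4a3, chr19:11640802-11641101, minus strand: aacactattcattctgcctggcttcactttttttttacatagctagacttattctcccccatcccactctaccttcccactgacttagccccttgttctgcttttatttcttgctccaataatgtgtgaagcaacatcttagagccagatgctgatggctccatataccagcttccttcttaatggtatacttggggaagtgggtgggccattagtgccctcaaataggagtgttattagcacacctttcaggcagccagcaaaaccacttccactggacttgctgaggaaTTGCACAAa
Elane, chr10:79886062-79886361, plus strand: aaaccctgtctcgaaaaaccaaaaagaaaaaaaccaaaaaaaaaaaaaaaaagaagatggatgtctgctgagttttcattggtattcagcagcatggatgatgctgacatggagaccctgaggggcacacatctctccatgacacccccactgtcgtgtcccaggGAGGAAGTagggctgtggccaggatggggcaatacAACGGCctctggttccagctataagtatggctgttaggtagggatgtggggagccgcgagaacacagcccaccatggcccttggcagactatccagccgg
Ctsg, chr14:56102525-56102824, minus strand: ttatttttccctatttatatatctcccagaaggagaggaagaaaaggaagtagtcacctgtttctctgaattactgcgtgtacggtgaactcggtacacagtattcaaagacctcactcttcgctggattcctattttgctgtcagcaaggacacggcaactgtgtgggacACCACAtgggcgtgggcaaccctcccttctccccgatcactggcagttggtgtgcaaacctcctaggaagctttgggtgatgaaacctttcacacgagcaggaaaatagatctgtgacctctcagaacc
Slpi, chr2:164356458-164356757, minus strand: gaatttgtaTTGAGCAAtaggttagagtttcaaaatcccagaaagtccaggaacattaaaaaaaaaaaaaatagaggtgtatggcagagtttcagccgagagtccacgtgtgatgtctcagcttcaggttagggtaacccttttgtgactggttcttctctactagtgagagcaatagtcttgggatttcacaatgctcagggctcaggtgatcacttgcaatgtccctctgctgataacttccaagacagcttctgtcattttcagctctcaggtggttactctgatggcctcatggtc
Robo4, chr9:37401722-37402021, plus strand: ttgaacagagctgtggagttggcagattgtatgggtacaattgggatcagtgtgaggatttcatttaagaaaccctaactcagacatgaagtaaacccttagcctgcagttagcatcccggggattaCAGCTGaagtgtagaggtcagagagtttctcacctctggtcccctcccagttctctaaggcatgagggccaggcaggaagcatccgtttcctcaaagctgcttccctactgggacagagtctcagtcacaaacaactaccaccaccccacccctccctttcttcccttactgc
Mycn, chr12:12941787-12942086, minus strand: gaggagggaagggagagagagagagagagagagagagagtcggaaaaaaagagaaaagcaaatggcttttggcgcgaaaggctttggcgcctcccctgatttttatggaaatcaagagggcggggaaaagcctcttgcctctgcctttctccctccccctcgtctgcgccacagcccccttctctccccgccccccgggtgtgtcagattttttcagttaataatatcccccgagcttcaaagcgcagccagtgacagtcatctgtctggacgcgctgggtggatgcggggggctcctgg

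The capitals mark TTGCNNAA (C/EBP) in Ms4a3 and, on the reverse strand, in Slpi, GAGGAAGT (a short form of the PU.1 motif) and AACGGC (MYB) in Elane, TGTGGT (RUNX) on the reverse strand of Ctsg, and CAGCTG (an E-box) in Robo4. None of the searched motifs lay in the Mycn window. Searched on both strands, TTGCNNAA was in 9.19% of all promoters of tested genes, in 19.5% of those called higher and in 10.2% of those called lower. TGTGGT was in 13.7%, 29.3% and 16.4%, and GAGGAAGT in 3.15%, 6.10% and 3.11%. ACAGGAAG (ETS) was in 3.21%, 8.54% and 6.22%, the GATA factor motif AGATAA in 8.29%, 12.2% and 9.78%, CAGCTG in 15.3%, 17.1% and 20.9%, and AACGGC in 6.60%, 2.44% and 4.44%. The longer PU.1 form AGAGGAAGT, which contains GAGGAAGT, was in 1.13% of all promoters, and TTGCGCAA, a case of TTGCNNAA, in 0.238%. These are shares of windows that hold given letters, with no test of binding or of the difference between shares.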

How the data were processed

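Wild-type GMP (2 arrays) and LSK (2 arrays) were compared on 1-colour Agilent arrays. Feature extraction used Agilent's software, version 10.7.3.1, per the file headers, and the deposited processed signal is a background-corrected fluorescence intensity on a linear scale. The foreground and background intensities, also deposited by the authors, are uncorrected. The table that the authors deposited has log2 values. Set against the scanner values, these were shifted to the 75th percentile of each array and centred on each probe's median (r of at least 0.999). For the 4 wild-type arrays, the medians of that table were 0.12 and −0.27 (LSK) and −0.13 and −0.14 (GMP). The direction is thereby known, whereas a correlation within an array cannot fix the scale or a constant shift of that array. What else was done upstream is not given in the sources used here.

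From each log2 processed signal, the 75th percentile over the non-control spots of its array was subtracted. Spots marked as outliers were dropped, and repeat spots of a probe were averaged. A probe stayed if some group had both its arrays well above background there (39098 of 55681 probes). The files carry no gene names, so accessions were looked up in a RefSeq table of GRCm38.p6, giving 20145 symbols for 26582 probes. Each gene was represented by its probe with the highest mean, which left 28088 features, 15856 with a symbol. Of 71 called genes with several kept probes, 2 had a probe of opposite sign. A value was missing on some array for 13 features, none of them a called one on a wild-type array. With limma 3.58.1 (lmFit, contrasts.fit, eBayes; R 4.3.3), means of the 4 groups were fitted over all 8 arrays. Residual degrees of freedom were 4 and the prior added 5.76. Calls took a two-sided Benjamini-Hochberg adjusted p under 0.05 over all features. The fit was tested on simulated data. Figures came from matplotlib 3.10.9 and pandas 2.3.3 under Python 3.11.15.

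The members, the 38 gene lists and the tests were chosen with earlier results of these data known, and a list is described by its counts and median beside those of all features, with no test of the list. The genes named were the 15 with the largest called difference in each direction, up to 5 called members per direction and up to 3 uncalled members per list, all gate and population markers, and Ackr1. The text gives a selection of these, and a few named genes are not reported here. Cell number per sample is not stated, and precision is limited by having 2 arrays per group.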

Additional observations from a re-analysis of the deposited data

How the results depend on the processing

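The count of called features moved with the settings. All 522 features kept their direction under the alternatives except with every probe as its own feature (519 of 522) and with the filter that asked for signal above background on all 4 wild-type arrays (251 of the 252 that passed it). They were called for large differences on these same arrays, so kept direction is not a separate check. Array weights, the slide row block and fits without deficient arrays leave the wild-type difference as it is, so they could not turn it. Called in all, higher and lower, the counts were 324, 126 and 198 with normexp background correction, 84, 29 and 55 with quantile normalization, 200, 75 and 125 with median scaling, 643, 101 and 542 with the percentile over probes detected on all arrays, 213, 55 and 158 without a filter on dim probes, and 170, 64 and 106 with the stricter filter, which tests fewer features. The share called higher was 38.9% with normexp and 37.6% with the stricter filter. The wild-type arrays alone, or all arrays without the 2 deficient ones that stood apart (which gives the same fit), gave 1337, 394 and 943, and array weights 2085, 707 and 1378. Slide row as a random block gave 135 and 362, and 134 and 356 were called from the deposited values. Leaving out 1 array in the fit over all arrays gave 17 to 649 calls, 3 to 172 higher and 14 to 477 lower. With the wild-type arrays alone, where the lone array of a group is assumed to vary like the other group, the counts were 1014, 297 and 717 without LSK replicate 1, 4119, 1856 and 2263 without LSK replicate 2, 1443, 337 and 1106 without GMP replicate 1, and 1142, 337 and 805 without GMP replicate 2. The cause of these shifts was not tested.

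Same-numbered LSK and GMP arrays did not deviate together (r = −0.13 in wild type), so the numbers are not taken to pair the samples. With the replicate number as a block, the counts were 132 higher and 390 lower, and 2437, 841 and 1596 with the block and the wild-type arrays alone. A crossed pairing of the wild-type GMP arrays gave 117 and 354.

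The values that turned in sign belonged to 9 uncalled genes. With median scaling Cd8a had 0.092, Csf3r 0.20 and Ptprc 0.14, and Cd8a had 0.021 with normexp and 0.0082 with quantile normalization. With the percentile over detected probes, the gene Cd3e had −0.0045, Gimap4 −0.23, Ly6a −0.22 and Mecom −0.23, and Ly6a had −0.23 with quantile normalization. Itgam had 0.075 at another probe. With 1 wild-type array left out, the lowest and highest values were −1.09 and 0.62 for Cd8a, −1.58 and 0.021 for Cd4, −0.49 and 0.24 for Csf3r, −0.23 and 0.52 for Gimap4, −0.82 and 1.14 for Ly6a, −0.59 and 0.88 for Mecom, and −0.81 and 0.43 for Ptprc. Cd8a was also turned, at 0.43, without LSK replicate 1, and Gimap4, at −0.16, without GMP replicate 2.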
